A study of Homo sapiens with 4 samples.

Results

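The 37 glycolysis and hypoxia response genes described here comprise glucose and lactate transporters, the enzymes and regulators of glycolysis, and genes induced by the hypoxia-inducible factors (HIFs). They were chosen by name from the 58735 gene identifiers in the files by a rule that uses no measured value, although earlier results of these data were known when the list was made. All 37 were found, and all 37 passed the filter, a mean of 1 FPKM or more, which left 14523 genes for testing. FPKM are fragments scaled to gene length and to a depth value for each library. The study asked what depletion of KIF26B, a kinesin family member, does to the transcriptome of HCT116, an established human colorectal cancer cell line grown in McCoy 5A medium with fetal bovine serum. RNA sequencing was performed on 2 libraries from cells transfected with control siRNA and 2 libraries from cells transfected with siRNA against KIF26B, all collected at 48 h. Every library came from the same line, and transient siRNA is the only treatment that the labels name. The study names 2 independent siRNAs against KIF26B, and which of them is in which library is not stated. The deposited values of KIF26B siRNA replicates 1 and 2 stand under the column names K_KD1_2 and K_KD2, and no source used here says whether these numbers refer to the siRNAs. Nothing in the labels says that replicates came from separate cultures, so the p-values measure only the spread between these libraries, which may be technical.

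Glycolysis converts glucose to pyruvate and, with lactate dehydrogenase, to lactate, and many tumor cells run it at a high rate even when oxygen is present. When oxygen is scarce, prolyl hydroxylases of the EGLN family stop marking the HIF-α subunits for destruction by the VHL ubiquitin ligase, and HIF-α with its partner ARNT switches on transporters, nearly every glycolytic step, angiogenic factors such as VEGFA and mitophagy receptors such as BNIP3. The HIF-α subunits are controlled mainly through the stability of their proteins, which mRNA levels do not report.

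The libraries held between 18774362 and 24312567 reads recovered from the FPKM values. KIF26B itself was barely detected, at 0.110 and 0.205 FPKM (31 and 73 reads) in control siRNA replicates 1 and 2 and at 0.140 and 0.0307 FPKM (43 and 8 reads) in KIF26B siRNA replicates 1 and 2. For the targeted gene, the library labelled KIF26B siRNA replicate 1 was thus within the range of the controls, and replicate 2 was below both. The control libraries were much more alike than the KIF26B siRNA libraries. Over genes with at least 20 reads in a pair of libraries, the squared difference averaged 2.66 times sampling noise between the controls and 58.8 times between the KIF26B siRNA libraries. Mitochondrially encoded genes held 6.98% and 6.99% of reads in the controls, 9.80% in KIF26B siRNA replicate 1 and 7.87% in replicate 2. Of 8 markers of colorectal epithelium, 6 were above the filter and their summed level with the others ranged from 1563 to 1696 FPKM, but VIL1 and CDH17 were near 0. Of the 7 fibroblast markers only COL1A1 passed the filter, and the summed level of the list was 7.40 and 7.19 FPKM in the controls, 4.93 FPKM in KIF26B siRNA replicate 1 and 8.82 FPKM in replicate 2. The blood and endothelial markers summed to at most 0.589 FPKM in any library, and CD3E was at 0 in all of them.

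Compared with the controls, the members did not move as a group in one direction. In most of them KIF26B siRNA replicate 1 was lower than both controls and replicate 2 was higher than both. This held for 27 of the 37 members, against 14% of all genes tested, and the reverse arrangement (replicate 1 above and replicate 2 below both controls) was found in 0 members, against 12.3% of all genes. Both KIF26B siRNA libraries lay above both controls for 3 members (24.9% of all genes) and below both for 4 members (27.8% of all genes). The median difference between KIF26B siRNA replicate 1 and the control mean was -0.47 over the members on the scale of log2(FPKM + 1), and that of replicate 2 was 0.41, whereas the medians over all genes tested were -0.02 and -0.0046. This arrangement was noticed after the values were seen. In these bulk libraries, fewer cells with a transcript and less RNA per cell cannot be told apart. The arrangement rests on 1 library on each side and is given as a description with no test. The part of the KIF26B level, the mitochondrial share and the COL1A1 level, which all differed between the same 2 libraries, was not tested.

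**Figure D1:**
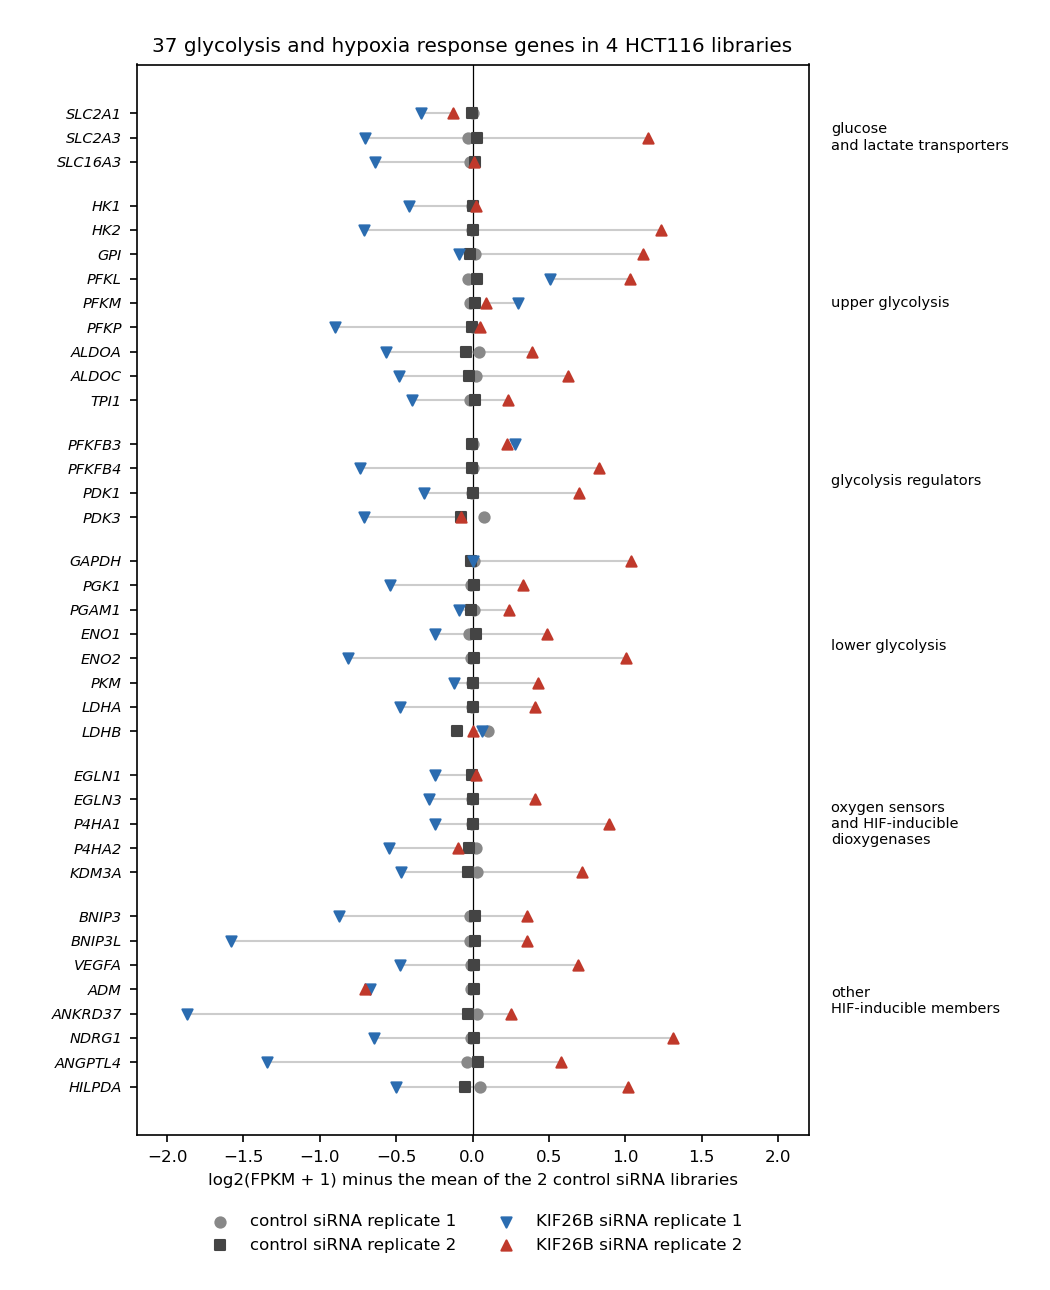
Each row is 1 of the 37 members, grouped by role. The horizontal axis is log2(FPKM + 1) minus the mean of the 2 control siRNA libraries. Circles and squares are the controls, downward triangles KIF26B siRNA replicate 1 and upward triangles replicate 2, joined by a grey line. In 27 members the downward triangle lies to the left and the upward triangle to the right of both controls.

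Between the KIF26B siRNA libraries, replicate 2 exceeded replicate 1 for 33 of the 37 members. The share of all genes tested was not counted, and their median difference was 0.027 on the log2(FPKM + 1) scale. The difference was above 1 on the log2(FPKM + 1) scale for 17 members, against 3.42% of all genes tested, and below -1 for 0 members, against 1.98%. The control libraries hardly differed for the same genes. Their median absolute difference over the members was 0.025 on that scale, compared with 0.95 between the KIF26B siRNA libraries, and over all genes tested the corresponding values were 0.073 and 0.28.

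**Figure D2:**
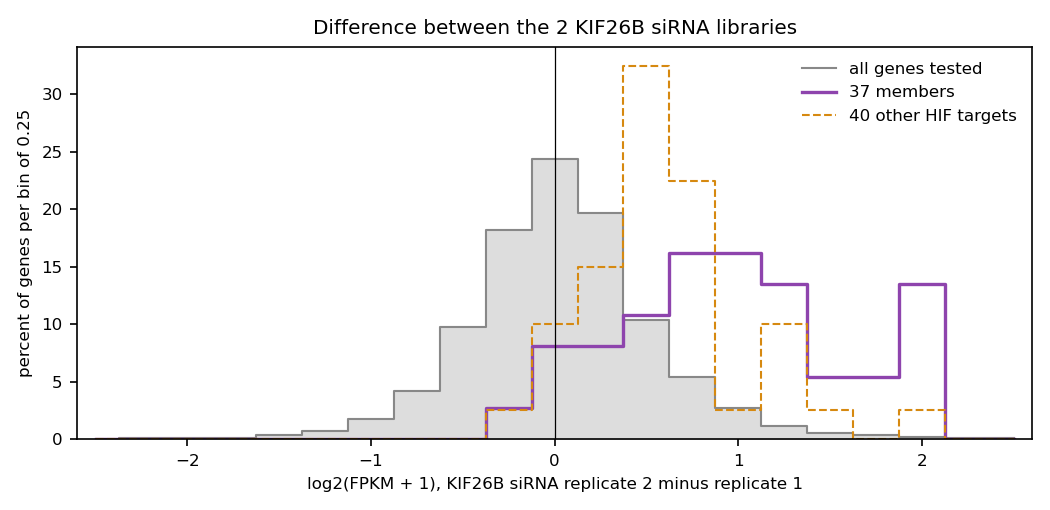
The horizontal axis is the difference in log2(FPKM + 1) between KIF26B siRNA replicate 2 and replicate 1, and the vertical axis is the percent of genes in each bin of 0.25. The filled grey line stands for the 14523 genes tested, the solid line for the 37 members and the dashed line for 40 other HIF targets. The members have a median of 0.95 and the other HIF targets of 0.52, whereas all genes are centered at 0.027.

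As a comparison of the 2 groups, the members showed little. At the unadjusted P below 0.05, 1 member was higher (PFKL, against 7.74% of all genes tested) and 1 was lower (ADM, against 8.68%), so fewer members passed than the background share. At the thresholds the study used, P below 0.05 with a log2 fold change beyond 1, 0 members were higher (0.813% of all genes) and 0 were lower (0.606%). After Benjamini-Hochberg adjustment of limma's test over all genes, 0 members and 0% of all genes passed 0.05, and the smallest adjusted p over the members was 0.242. The median log2 fold change was 0.06 over the members and -0.01 over all genes tested. For 35 members the 95% interval spanned 0. For 1 gene and 2 libraries per group, the smallest two-sided p that exact permutation allows is 0.333. No member is therefore said to have changed with KIF26B siRNA.

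HIF binds the hypoxia response element, whose core is ACGTG or GCGTG. The 250 bases before the transcription start, from RefSeq on GRCh38.p14, were searched for these letters on both strands, so that CACGT and CACGC are the matches on the other strand. An E-box, CACGTG, holds 1 match on each strand and counts as 2. Of the 37 members, 32 had an entry, and 20 of these 32 (62.5%) held at least 1 match, compared with 43.1% of all 27305 promoters and 58.6% of the 9601 promoters of genes tested. The share was 15 of 22 among the members with replicate 1 below and replicate 2 above both controls, and 5 of 10 among the others. Sequences are shown for 4 of the 7 members with the largest absolute difference between the KIF26B siRNA libraries (ANKRD37, HK2, ANGPTL4 and ENO2). The others of these 7, NDRG1, BNIP3L and SLC2A3, had no entry. Sequences are also shown for the 2 members with the smallest absolute difference (ADM and PFKFB3). All 6 are on the plus strand and read 5′ to 3′, with ANKRD37 at chr4:185396591-185396840, HK2 at chr2:74833877-74834126, ANGPTL4 at chr19:8363905-8364154, ENO2 at chr12:6914330-6914579, ADM at chr11:10304823-10305072 and PFKFB3 at chr10:6144671-6144920. Capitals mark the matches.
ANKRD37: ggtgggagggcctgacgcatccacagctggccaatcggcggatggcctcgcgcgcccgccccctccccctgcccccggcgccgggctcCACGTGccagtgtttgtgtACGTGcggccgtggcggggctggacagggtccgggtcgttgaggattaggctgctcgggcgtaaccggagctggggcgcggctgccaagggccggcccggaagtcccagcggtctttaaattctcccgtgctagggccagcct
HK2: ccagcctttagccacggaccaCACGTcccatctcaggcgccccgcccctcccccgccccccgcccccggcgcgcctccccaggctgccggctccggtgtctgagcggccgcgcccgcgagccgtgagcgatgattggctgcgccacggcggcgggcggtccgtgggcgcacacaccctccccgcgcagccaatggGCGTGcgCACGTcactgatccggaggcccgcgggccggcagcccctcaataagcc
ANGPTL4: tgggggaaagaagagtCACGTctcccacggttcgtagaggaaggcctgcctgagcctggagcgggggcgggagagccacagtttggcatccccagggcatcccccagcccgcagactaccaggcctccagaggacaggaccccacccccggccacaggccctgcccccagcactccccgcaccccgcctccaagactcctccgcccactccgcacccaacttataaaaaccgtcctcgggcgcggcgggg
ENO2: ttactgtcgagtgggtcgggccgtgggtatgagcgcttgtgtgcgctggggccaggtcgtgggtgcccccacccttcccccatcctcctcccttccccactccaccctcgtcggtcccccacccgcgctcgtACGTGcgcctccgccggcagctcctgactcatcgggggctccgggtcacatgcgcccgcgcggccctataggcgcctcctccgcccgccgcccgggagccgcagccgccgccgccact
ADM: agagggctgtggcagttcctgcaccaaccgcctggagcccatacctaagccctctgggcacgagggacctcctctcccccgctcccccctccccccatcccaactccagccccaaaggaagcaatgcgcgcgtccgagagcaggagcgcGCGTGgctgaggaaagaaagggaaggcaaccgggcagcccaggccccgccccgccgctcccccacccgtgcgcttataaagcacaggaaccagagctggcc
PFKFB3: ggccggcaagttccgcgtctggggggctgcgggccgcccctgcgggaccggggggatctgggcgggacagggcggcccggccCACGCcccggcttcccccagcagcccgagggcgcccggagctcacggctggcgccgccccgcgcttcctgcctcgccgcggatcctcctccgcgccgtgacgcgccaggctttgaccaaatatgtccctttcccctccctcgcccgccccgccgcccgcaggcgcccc
ANKRD37 and HK2 held 3 matches each, and ANGPTL4, ENO2, ADM and PFKFB3 held 1 each. LDHB and PFKM, the other members with replicate 1 above replicate 2, had 0 matches. EGLN3, HK1, PDK1, PFKP, PGAM1, PKM and TPI1 also had 0, with replicate 1 below and replicate 2 above both controls. The most matches were in BNIP3 (6), LDHA (5) and ALDOC (5). Their ratios between the KIF26B siRNA libraries were 2.43-fold, 1.85-fold and 2.17-fold. A match is a stretch of letters and not a measured binding site.

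Among the transporters, SLC2A3 had the widest spread. SLC2A3, which encodes the high-affinity glucose transporter GLUT3, was at 5.96 and 6.24 FPKM in control siRNA replicates 1 and 2, at 3.37 FPKM in KIF26B siRNA replicate 1 and at 14.8 FPKM in replicate 2. The KIF26B siRNA libraries thus flanked the controls, with a 4.38-fold ratio between them. SLC2A1, which encodes the widespread transporter GLUT1, was at 138 FPKM in both controls and at 109 and 126 FPKM in KIF26B siRNA replicates 1 and 2. Both values were below the controls, with a log2 fold change of -0.23 and a 95% interval from -0.59 to 0.13. SLC16A3, the lactate exporter MCT4, was at 95.9 and 97.8 FPKM in the controls, at 61.9 FPKM in replicate 1 and at 97.3 FPKM in replicate 2. Only replicate 1 stood outside the controls for this gene.

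In upper glycolysis, which takes glucose to the triose phosphates, 7 of 9 genes had replicate 1 below and replicate 2 above both controls. The hexokinases, which trap glucose in the cell, differed in the width of the split. HK2, the inducible isoform, was at 37.8 and 38.0 FPKM in the controls and at 22.8 and 90.6 FPKM in KIF26B siRNA replicates 1 and 2, that is 60.2% and 239% of the control mean. HK1, the isoform present in most tissues, was at 33.8 FPKM in both controls, at 25.1 FPKM in replicate 1 and at 34.3 FPKM in replicate 2. In the controls the transcripts were thus at similar levels per length, and in replicate 2 HK2 stood well above HK1. GPI, which turns glucose 6-phosphate into fructose 6-phosphate, was at 102 and 99.6 FPKM in the controls, at 94.5 FPKM in replicate 1 and at 219.7 FPKM in replicate 2. Almost all of the spread of GPI came from replicate 2, at 218% of the control mean.

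The phosphofructokinase subunits, which form the committed step, went separate ways. PFKL, the liver-type subunit, was at 19.7 and 20.6 FPKM in the controls and at 29.0 and 42.3 FPKM in KIF26B siRNA replicates 1 and 2. Both KIF26B siRNA libraries were above the controls, with a log2 fold change of 0.77 (SE 0.22, 95% interval 0.17 to 1.37, adjusted p = 0.269 by limma). PFKM, the muscle-type subunit, was at 22.9 and 23.4 FPKM in the controls, at 28.6 FPKM in replicate 1 and at 24.7 FPKM in replicate 2. It was 1 of the 4 members with replicate 1 above replicate 2, and its interval of the log2 fold change ran from -0.17 to 0.55. PFKP, the platelet-type subunit and the most abundant of these genes in the controls, was at 157 FPKM in both controls, at 83.6 FPKM in replicate 1 and at 162 FPKM in replicate 2. Its difference lay almost wholly in replicate 1, at 53.3% of the control mean.

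The aldolases split fructose 1,6-bisphosphate, and both were arranged like HK2. ALDOC was at 75.3 and 73.1 FPKM in the controls, at 53.0 FPKM in replicate 1 and at 115 FPKM in replicate 2. ALDOA was at 11.2 and 10.5 FPKM in the controls, at 6.99 FPKM in replicate 1 and at 14.5 FPKM in replicate 2. In the annotation, 54.2% of the exon bases of ALDOA are shared with other annotated genes. The gene sharing most of them held 77 and 75 reads in the controls and 39 and 63 in replicates 1 and 2. With its reads added, the ratio of ALDOA between the KIF26B siRNA libraries was 2.06-fold instead of 2.07-fold. How reads in shared exons were counted is not given in the sources used here, so the level of ALDOA is uncertain. TPI1, which interconverts the triose phosphates, was at 312 and 319 FPKM in the controls, at 239.6 FPKM in replicate 1 and at 371 FPKM in replicate 2. The spread of TPI1 was narrow beside that of HK2, with a 1.55-fold ratio between the KIF26B siRNA libraries against 3.97-fold.

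In lower glycolysis, which yields ATP and pyruvate, 6 of 8 genes had replicate 1 below and replicate 2 above both controls. GAPDH, the most abundant member, was at 1174 and 1162 FPKM in the controls, at 1168 FPKM in KIF26B siRNA replicate 1 and at 2403 FPKM in replicate 2. Replicate 1 thus lay between the controls for this common reference gene, and replicate 2 was at 206% of the control mean. PGK1, the first ATP-yielding enzyme, was at 183 and 185 FPKM in the controls, at 126 FPKM in replicate 1 and at 232 FPKM in replicate 2. PGAM1, the mutase of the next step, was at 240.1 and 237 FPKM in the controls, at 224 FPKM in replicate 1 and at 281 FPKM in replicate 2. Both libraries stood outside the controls for these genes, with 1.84-fold and 1.25-fold ratios between them.

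The enolases, which form phosphoenolpyruvate, differed in level and in spread. ENO1, the main isoform and the second most abundant member, was at 666 and 686 FPKM in the controls, at 571 FPKM in replicate 1 and at 950.1 FPKM in replicate 2. ENO2, known as the neuronal isoform and inducible by hypoxia, was at 52.6 and 53.3 FPKM in the controls, at 29.7 FPKM in replicate 1 and at 107 FPKM in replicate 2. The less abundant ENO2 therefore had the wider ratio between the KIF26B siRNA libraries, 3.62-fold against 1.67-fold for ENO1. PKM, which encodes pyruvate kinase, was at 308 and 309.7 FPKM in the controls, at 284 FPKM in replicate 1 and at 417 FPKM in replicate 2. These values count all PKM isoforms together. LDHA, the lactate dehydrogenase subunit favored for making lactate, was at 290.3 and 292 FPKM in the controls, at 209 FPKM in replicate 1 and at 387 FPKM in replicate 2. LDHB, the subunit known to favor the use of lactate, was at 17.6 and 15.1 FPKM in the controls and at 17 and 16.3 FPKM in replicates 1 and 2. LDHA thus flanked the controls, while both KIF26B siRNA values of LDHB lay between them, with an interval of its log2 fold change from -0.34 to 0.40. In the annotation, 33.4% of the exon bases of LDHB are shared with another gene on the same strand. That gene held 1 read in control siRNA replicate 1 and 0 in every other library. As for ALDOA, how reads in shared exons were counted is not known, so the level of LDHB is uncertain.

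**Figure D3:**
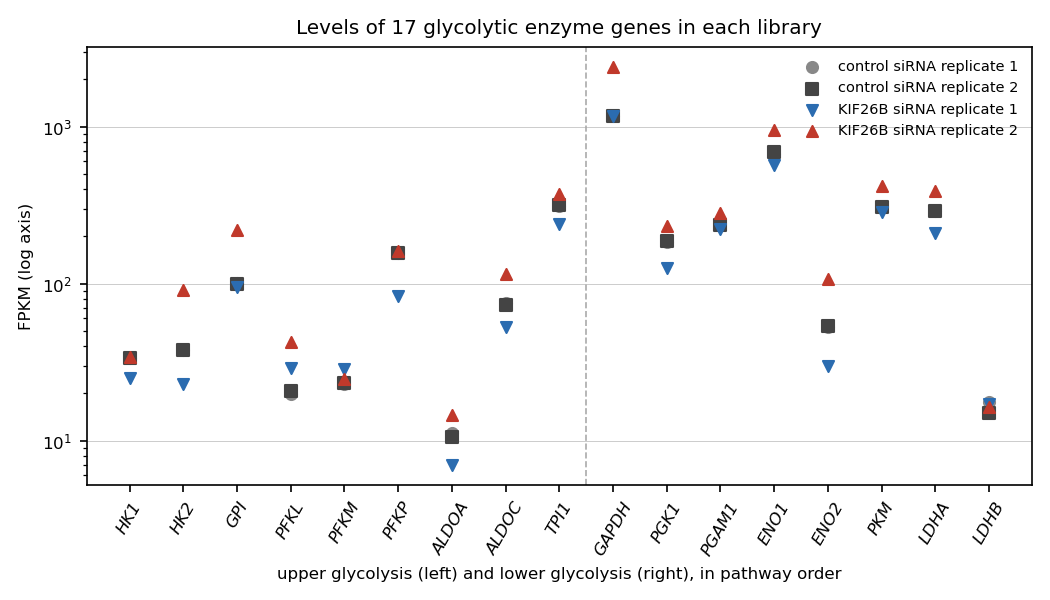
The vertical axis is FPKM on a log scale for the 17 genes of upper (left of the dashed line) and lower glycolysis in pathway order. Circles and squares are control siRNA replicates 1 and 2, downward and upward triangles KIF26B siRNA replicates 1 and 2. ALDOA and LDHB, whose levels are uncertain because of shared exons, stand at the bottom. GAPDH stands at the top, with the upward triangle at 2403 FPKM and the other symbols between 1162 and 1174 FPKM.

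Summed over these 17 enzyme genes, the share of all FPKM was 1.20% and 1.18% in the controls, 0.942% in KIF26B siRNA replicate 1 and 1.72% in replicate 2. Leaving the mitochondrially encoded genes out of the total gave 1.61% and 1.59% in the controls, 1.40% in replicate 1 and 2.32% in replicate 2. The order of the libraries was the same with and without the mitochondrial genes.

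The regulators of flux were split into a pair that followed the main arrangement and a pair that did not. PFKFB4, a bifunctional enzyme that sets the level of fructose 2,6-bisphosphate, was at 23.0 and 22.9 FPKM in the controls, at 13.4 FPKM in replicate 1 and at 41.5 FPKM in replicate 2. PFKFB3, its paralog with the strongest kinase activity, was at 10.6 FPKM in both controls and at 13.1 and 12.6 FPKM in KIF26B siRNA replicates 1 and 2. For PFKFB3 both KIF26B siRNA libraries were above the controls and close to each other, with a log2 fold change of 0.25 and an interval from -0.05 to 0.56. PDK1, a kinase that shuts off pyruvate dehydrogenase, was at 4.48 and 4.52 FPKM in the controls, at 3.41 FPKM in replicate 1 and at 7.93 FPKM in replicate 2. PDK3, another kinase of this complex, was at 6.26 and 5.53 FPKM in the controls, at 3.21 FPKM in replicate 1 and at 5.53 FPKM in replicate 2. Replicate 2 of PDK3 lay just below the lower control, and the 339 reads in replicate 1 were the fewest of any member in any library.

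The oxygen-dependent dioxygenases include the sensors that restrain HIF and are in part HIF targets themselves, and 4 of 5 had the arrangement of HK2. EGLN3, the hypoxia-inducible HIF prolyl hydroxylase and the least abundant member, was at 3.26 and 3.29 FPKM in the controls, at 2.51 FPKM in replicate 1 and at 4.67 FPKM in replicate 2. EGLN1, the main HIF prolyl hydroxylase, was at 21.3 and 21.1 FPKM in the controls, at 17.8 FPKM in replicate 1 and at 21.6 FPKM in replicate 2. Replicate 2 of EGLN1 exceeded the controls by little, at 102% of their mean. P4HA1, a collagen prolyl hydroxylase subunit, was at 48.7 and 48.9 FPKM in the controls, at 41.0 FPKM in replicate 1 and at 91.4 FPKM in replicate 2. P4HA2, its paralog, was at 9.61 and 9.25 FPKM in the controls and at 6.13 and 8.75 FPKM in replicates 1 and 2. P4HA2 was thus below both controls in both KIF26B siRNA libraries, with an interval of its log2 fold change from -0.86 to 0.21. KDM3A, a histone H3 lysine demethylase, was at 14.8 and 14.1 FPKM in the controls, at 10.2 FPKM in replicate 1 and at 24.4 FPKM in replicate 2.

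The other HIF-inducible members had the widest spread of the 6 role groups, with a median difference of 1.72 between KIF26B siRNA replicates 2 and 1 on the log2(FPKM + 1) scale, and 7 of 8 flanked the controls. ANKRD37, an ankyrin repeat protein used as a hypoxia marker, was at 32.9 and 31.4 FPKM in the controls, at 8.06 FPKM in replicate 1 and at 38.5 FPKM in replicate 2. Its ratio between the KIF26B siRNA libraries was 4.77-fold, and most of it lay in replicate 1, at 25.1% of the control mean. Of its exon bases, 40.3% are shared with UFSP2 on the opposite strand, and whether strand was used in counting is not given in the sources used here. UFSP2 itself was at 6.30 and 7.08 FPKM in the controls and at 6.95 and 8.72 FPKM in replicates 1 and 2, a narrower spread. The ratio of ANKRD37 was the largest among the members on its own reads, and with the reads of UFSP2 added it was 3.08-fold, below the 4.38-fold of SLC2A3 and the 4.01-fold of BNIP3L. The mitophagy receptors had the same lean toward replicate 1. BNIP3L was at 44.9 and 45.9 FPKM in the controls, at 14.5 FPKM in replicate 1 and at 58.4 FPKM in replicate 2. BNIP3 was at 31.4 and 32.1 FPKM in the controls, at 16.9 FPKM in replicate 1 and at 41.0 FPKM in replicate 2. On the log2(FPKM + 1) scale BNIP3L was -1.58 from the control mean in replicate 1 and 0.35 in replicate 2. ANGPTL4, a secreted inhibitor of lipoprotein lipase, was at 122 and 128 FPKM in the controls, at 48.4 FPKM in replicate 1 and at 187 FPKM in replicate 2.

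Other members of this group leaned the other way, with the larger departure in replicate 2. NDRG1, a stress-responsive gene linked to differentiation, was at 99.7 and 101 FPKM in the controls, at 63.8 FPKM in replicate 1 and at 251 FPKM in replicate 2. HILPDA, a lipid droplet protein, was at 19.1 and 17.8 FPKM in the controls, at 12.7 FPKM in replicate 1 and at 38.4 FPKM in replicate 2. VEGFA, the angiogenic growth factor, was at 9.64 and 9.80 FPKM in the controls, at 6.71 FPKM in replicate 1 and at 16.3 FPKM in replicate 2. Replicate 2 stood at 249.7%, 208% and 168% of the control mean for NDRG1, HILPDA and VEGFA.

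ADM, which encodes the vasodilator peptide adrenomedullin and is a classical HIF target, was the exception of the group. It was at 90.2 and 91.8 FPKM in the controls and at 56.8 and 55.4 FPKM in KIF26B siRNA replicates 1 and 2. Both KIF26B siRNA libraries were at a similar level below the controls, at 62.4% and 60.9% of their mean. The log2 fold change was -0.69 (SE 0.11, 95% interval -0.99 to -0.39, adjusted p = 0.242 by limma). The unadjusted P of limma was 0.00314 for ADM and 0.0236 for PFKL with all libraries. Both passed 0.05 only while both controls were in the fit. Without control siRNA replicate 1 the unadjusted limma P was 0.0603 for ADM and 0.0943 for PFKL, and without replicate 2 it was 0.0676 and 0.0765. The log2 fold changes in these fits were close to those with all libraries, at -0.70 and -0.68 for ADM and at 0.74 and 0.80 for PFKL, while the SE was larger, at 0.29 for ADM and 0.35 for PFKL in both fits.

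The HIF pathway regulators, which hold the HIF subunits, their degradation machinery and their coactivators, were not arranged like the members. HIF1A, the oxygen-regulated subunit, was at 33.5 and 35.3 FPKM in the controls, at 36.3 FPKM in KIF26B siRNA replicate 1 and at 21.5 FPKM in replicate 2. EPAS1, which encodes HIF-2α, was at 15.2 and 15.1 FPKM in the controls, at 16.2 FPKM in replicate 1 and at 14.2 FPKM in replicate 2. VHL, the substrate receptor of the ligase, was at 21.5 and 21.6 FPKM in the controls, at 25.6 FPKM in replicate 1 and at 17.6 FPKM in replicate 2. HIF1A, EPAS1 and VHL thus had replicate 1 above and replicate 2 below both controls, the reverse of most members. These genes and ARNT were named after their values were seen. ARNT, the shared partner subunit, was at 9.72 and 9.62 FPKM in the controls and at 8.86 and 8.91 FPKM in KIF26B siRNA replicates 1 and 2. Of the 26 regulators 25 were tested, and 5 of these had the reverse arrangement (12.3% of all genes tested), 2 had that of most members (14%), 12 were below both controls in both libraries (27.8%) and 3 above (24.9%). At the unadjusted P below 0.05, 0 were higher and 1 was lower, against 7.74% and 8.68% of all genes, and 0 passed the adjusted p. The lower one was CITED2, which competes with HIF for its coactivators, at 36.5 and 34.4 FPKM in the controls and 26.2 and 18.6 FPKM in KIF26B siRNA replicates 1 and 2 (log2 fold change -0.66, SE 0.20, adjusted p = 0.274 by limma).

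Other HIF targets, outside the members, were arranged in part like them. Of 53 listed genes, 40 were tested, and 22 of these (55%, against 14% of all genes tested) had replicate 1 below and replicate 2 above both controls, while 0 had the reverse (12.3%). The median difference between KIF26B siRNA replicates 2 and 1 was 0.52 over these genes on the log2(FPKM + 1) scale, and 6 exceeded 1 (3.42% of all genes). Both libraries were below the controls for 12 (27.8%) and above for 4 (24.9%). At the unadjusted P below 0.05, 0 were higher (7.74% of all genes) and 4 of the 40 were lower (8.68%), a share near the background, with 0 at the thresholds of the study and 0 at the adjusted p. PLOD2, a collagen lysyl hydroxylase, was at 19.9 and 20.5 FPKM in the controls and at 10.1 and 13.4 FPKM in KIF26B siRNA replicates 1 and 2 (log2 fold change -0.75, SE 0.17, adjusted p = 0.248 by limma). TFRC, the transferrin receptor, was at 68.1 and 69.7 FPKM in the controls and at 48.5 and 44.9 FPKM (log2 fold change -0.55, SE 0.12, adjusted p = 0.242 by limma). BHLHE41, a transcriptional repressor, and NT5E, the ectonucleotidase CD73, had log2 fold changes of -0.43 and -0.38.

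Glucose genes not known chiefly as HIF targets did not share the arrangement. Of the 55 listed genes of the pentose phosphate pathway, pyruvate oxidation, gluconeogenesis and other transporters, 37 were tested, and 5 (13.5%) had replicate 1 below and replicate 2 above both controls, a share close to that of all genes. The reverse was found for 7 (12.3% of all genes), both libraries were below for 16 (27.8%) and above for 4 (24.9%), and the median difference between the KIF26B siRNA libraries was -0.0047 on the log2(FPKM + 1) scale. At the unadjusted P below 0.05, 1 of 37 was higher (7.74% of all genes) and 5 were lower (8.68%), 1 was higher at the thresholds of the study (0.813%), and 0 passed the adjusted p. The higher one was ARRDC4, an arrestin-domain relative of TXNIP induced by glucose, at 4.90 and 4.0 FPKM in the controls and at 7.99 and 22.0 FPKM in KIF26B siRNA replicates 1 and 2 (log2 fold change 1.40, SE 0.50, adjusted p = 0.301 by limma). Among the lower ones, SLC2A6, a lysosomal hexose transporter, had a log2 fold change of -0.61, PGM2, a phosphopentomutase, -0.47, and MPC2, a subunit of the mitochondrial pyruvate carrier, -0.43.

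**Figure D4:**
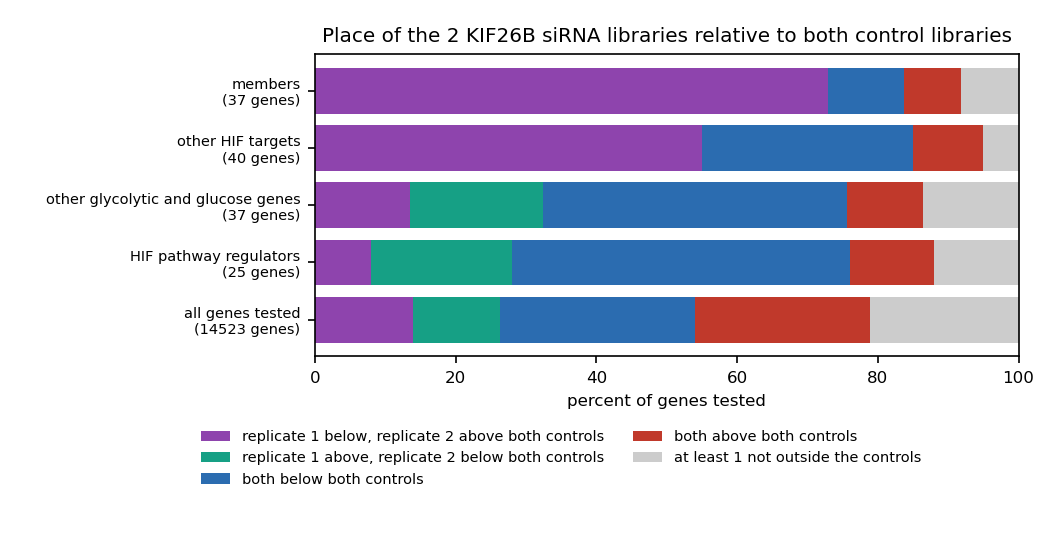
Each bar is a list of genes, and its segments give the percent of the genes tested by the place of the 2 KIF26B siRNA libraries relative to both controls. The segment with replicate 1 below and replicate 2 above both controls covers 27 of 37 members, 22 of 40 other HIF targets, 5 of 37 other glucose genes, 2 of 25 HIF pathway regulators and 14% of all 14523 genes tested.

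Fewer members had the arrangement when a margin was asked for, and under either margin they were no longer most of the members. The margins and the higher minimum level were chosen after the values were seen. With replicate 1 at least 20% below the lower control and replicate 2 at least 25% above the higher one, 17 of 37 members had it, against 2.59% of all genes tested. With both at least 1.3-fold beyond the nearest control it was 12 of 37 members, against 1.86% of all genes, and in each case 0 members had the reverse. Where the mean over the libraries was 10 FPKM or more, it was 24 of 32 members, against 16.99% of all such genes. Scaling the libraries to equal FPKM totals left 25 of 37 members in this arrangement, against 13.6% of all genes. It raised the members below both controls in both libraries from 4 to 8, while the share of all genes in that class became 39.6%.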

How the data were processed

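RNA sequencing of 4 HCT116 libraries (2 control siRNA, 2 KIF26B siRNA, 48 h) was analyzed, grouped by the labels. The values the authors deposited are FPKM, 1 per Ensembl gene and library, made from poly(A) paired-end libraries. The submitters' processing notes name HISAT2 2.0.5, featureCounts 1.5.0-p3 and the build hg38, whereas the study's methods name hg19. The files hold no coordinates, so genes were matched by Ensembl identifier to GENCODE annotation of GRCh37, and 56513 identifiers had a symbol. The unit was read from the values: between 91.7% and 92.2% of the values above 0 of single-exon genes, depending on the library, were within 0.02 reads of a whole multiple of what 1 read is worth at the annotated length. The tool the authors used for their group test was DESeq2, whose output was not used here. Whole reads were recovered for 99.99% of the genes above 0, from the smallest gene length that gave whole numbers in all libraries within 0.002 reads. Where the annotated length was a multiple of that length, the annotated length was used instead. For some of the other genes the reads may be a divisor of the true number. In KIF26B siRNA replicate 2 the depth value behind the FPKM, 18068934 fragments, was below the 18774362 reads recovered. The depth values may therefore not be plain sums of reads, and how they were set is not given in the sources used here.

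The test was limma 3.58.1 in R 4.3.3 on log2(FPKM + 1), for genes averaging 1 FPKM or more, without covariates, with empirical Bayes moderation (2.00 prior and 2 residual degrees of freedom) and Benjamini-Hochberg adjustment over all 14523 genes. A fold change on this scale understates that of low genes. The fitting functions were tested on simulated data with equal spread in both groups. That simulation does not cover the unequal spread of these libraries. Exons shared with other genes came from the GRCh37 annotation and promoters from RefSeq on GRCh38.p14. The recovered reads of a member ranged from 339 to 129445 per library, and intervals do not cover the counting error of the shallow ones apart from the spread between libraries.

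The members and all gene lists were chosen with earlier results of these data known. Named genes are all members, KIF26B and, from each of the other lists, up to 4 genes with unadjusted P below 0.05, largest log2 fold change first. Genes named outside this rule are marked in the text or are cell type markers, given by their range. Alternatives covered scaling, filters, pseudocount, variance trend, limma-voom on the recovered reads, a replicate block, pseudogene and overlapping reads, and each library left out.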

Additional observations from a re-analysis of the deposited data

How the results depend on the processing

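With 2 libraries per group, and KIF26B siRNA libraries that differed from each other far more than the controls did, the group values of most members depend on which library is left out. Leaving out 1 library at a time moved the number of members higher at unadjusted P below 0.05 between 0 and 27, the number lower between 0 and 29, and the number at an adjusted p below 0.05 between 0 and 17. The extremes of 27 higher and 17 adjusted came without KIF26B siRNA replicate 1, where 22.9% of all genes were higher at unadjusted P below 0.05 and 15.5% passed the adjusted p, and the 29 lower came without KIF26B siRNA replicate 2, where 22.7% of all genes were lower. These fits take their spread from the controls alone and assume that the lone library varies as they do. The median log2 fold change of the members ranged from -0.47 without KIF26B siRNA replicate 2 to 0.41 without replicate 1. The members above both controls ranged from 3 to 31, those below from 4 to 32, and those with replicate 1 below and replicate 2 above from 27 to 29. The 31 and the 32 each count 1 KIF26B siRNA library alone. Of all 14523 genes tested, replicate 2 alone was above both controls for 6390, and replicate 1 alone was below both for 6648. The share of all genes was not counted with a control left out.

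The log2 fold change turned sign for 29 members when 1 library was left out, with ranges of -0.70 to 1.15 for SLC2A3, -0.64 to 0.0070 for SLC16A3, -0.42 to 0.021 for HK1, -0.71 to 1.24 for HK2, -0.088 to 1.12 for GPI, -0.90 to 0.048 for PFKP, -0.56 to 0.39 for ALDOA, -0.48 to 0.62 for ALDOC, -0.40 to 0.23 for TPI1, -0.74 to 0.83 for PFKFB4, -0.32 to 0.70 for PDK1, -0.54 to 0.33 for PGK1, -0.089 to 0.24 for PGAM1, -0.24 to 0.49 for ENO1, -0.81 to 1.01 for ENO2, -0.12 to 0.43 for PKM, -0.47 to 0.41 for LDHA, -0.074 to 0.13 for LDHB, -0.24 to 0.025 for EGLN1, -0.28 to 0.41 for EGLN3, -0.25 to 0.89 for P4HA1, -0.47 to 0.72 for KDM3A, -0.87 to 0.36 for BNIP3, -1.58 to 0.35 for BNIP3L, -0.47 to 0.69 for VEGFA, -1.87 to 0.25 for ANKRD37, -0.65 to 1.31 for NDRG1, -1.35 to 0.58 for ANGPTL4 and -0.50 to 1.02 for HILPDA. Without 1 KIF26B siRNA library, the fold change is the distance of the other one from the controls. The 27 members with replicate 1 below and replicate 2 above both controls therefore had to turn sign, which restates that arrangement. How many of all genes turned sign was not counted, so the 29 is not read as particular to the members.

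Equal FPKM totals shifted the median of all genes (log2 fold change) from -0.01 to -0.12. Under it, 2 members were lower at unadjusted P below 0.05 (ADM and SLC2A1), against 14.8% of all genes. Below both controls were 8 members (39.6% of all genes), and 1 had replicate 1 above and replicate 2 below (10.7%). For 8 members small changes turned sign, to -0.057 for ALDOC, -0.081 for PFKFB4, -0.057 for PGAM1, -0.0076 for ENO1, -0.033 for ENO2, -0.094 for LDHB, -0.040 for EGLN3 and -0.011 for VEGFA. The number of all genes that turned sign was not counted here either. With no filter on low values, 2 members were higher (PFKL and PFKFB3), against 6.33% of the 34638 genes then tested. A margin of 1.3-fold left 1 member above both controls (6.31% of all genes) and 1 below (6.66%). A margin of 25% above or 20% below also left 1 member above (7.86%) and 1 below (8.41%). These margins left 12 and 17 members with replicate 1 below and replicate 2 above (1.86% and 2.59% of all genes). A mean of at least 10 FPKM left 2 of 32 members below both controls, against 31.9% of all such genes. In the fit with the replicate block the counts of members were unchanged at 1 higher and 1 lower, and over all genes 864 were higher and 861 lower, against 1124 and 1261. Same-numbered libraries did not deviate together (correlation across genes -0.0031), so the numbers are not read as pairs. The separation of libraries has no fit and no value under the block, filters, pseudocount, variance trend or limma-voom. Reads of the listed pseudogenes turned no member. Adding the reads of UFSP2, an alternative chosen after the values were seen, moved the log2 ratio of ANKRD37 from -0.87 to -0.53.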
